A study of Mus musculus with 2 samples.

Results

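Notch receptors, their ligands and the target genes they switch on were followed as a set of 10 genes in costal-cartilage-derived stem cells (CDSCs). The set held the receptors Notch1, Notch2 and Notch3, the ligands Jag1, Jag2 and Dll1, and the targets Hes1, Hey1, Hey2 and Heyl. The genes were chosen by symbol, and each of the 10 matched 1 of the 21849 genes of the count tables. A Notch receptor sits in the cell membrane and is activated by a ligand on a neighboring cell. Cleavage by an ADAM protease and then by gamma-secretase frees its intracellular domain, which enters the nucleus, binds the DNA-binding protein Rbpj and switches on repressor genes of the Hes and Hey families. In skeletal tissue the pathway is known for holding mesenchymal progenitors back from differentiation and for a part in chondrocyte maturation, and in vessels Notch3 marks mural cells.

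Primary CDSCs were CD45-CD51+ cells sorted from collagenase-digested rib cartilage of newborn C57BL/6J background mice, either CD45.1 or ZsGreen, and cultured CDSCs had been grown in serum-containing medium to passage 2 or 3. The study asked whether expansion changes these cells. Single-cell RNA sequencing was performed on 1 library of primary and 1 library of cultured CDSCs, which leaves every difference below without a replicate check, and none was tested. The number of animals behind each library and the mouse line of each were not stated in the sources used here. Counts of the ZsGreen reporter are given below.

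Expression was measured as unique molecular identifiers (UMIs), where 1 UMI stands for 1 transcript molecule that was captured. Cells needed 500 genes, 1000 UMIs and no more than 10% of UMIs from mitochondrial genes, which left 11746 primary cells with 137148874 UMIs and 5338 cultured cells with 330129909 UMIs. The median was 10026 UMIs per primary and 56864 UMIs per cultured cell, and 50.6% of the cultured barcodes failed the filter against 1.26% of the primary ones. The 2 libraries shared 32 cell barcodes. Levels are given as CPM, the UMIs of a gene relative to all UMIs of its library. The 13 chondrocyte markers summed to 90826 CPM in primary CDSCs and 1083 CPM in cultured CDSCs. The labels name bone marrow as the tissue. The 9 haematopoietic markers summed to 9.53 and 26.6 CPM, but the cells had been sorted as CD45-, so these sums do not bear on that label. The reporter ZsGreen had 60957 UMIs in primary CDSCs and 0 in cultured CDSCs, so the primary cells came at least partly from ZsGreen mice. The Y-linked gene Uty had 11 and 20195, so culture and donor animals cannot be told apart. With 1 library per group, any difference in library preparation or sequencing would also coincide with culture. Intervals in parentheses are exact, at the 95% level, and reflect counting error alone. CPM of this 3′ kit is not scaled by transcript length and is compared here within a gene, not between genes.

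The target genes encode related repressors. The last 60 coding bases of Hes1, Hey2 and Heyl are shown, stop codon included, to show where these 3 differ. Capitals mark the codons of the carboxy-terminal tetrapeptide that begins with tryptophan or tyrosine and ends in proline and tryptophan, the motif through which Hes proteins bind TLE co-repressors. The sequences were read from GENCODE M21 transcripts on GRCm38, at chr16:30067369-30067428 (+) for Hes1, chr10:30833736-30833795 (-) for Hey2 and chr4:123246571-123246630 (+) for Heyl.
Hes1: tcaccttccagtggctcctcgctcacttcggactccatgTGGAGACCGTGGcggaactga
Hey2: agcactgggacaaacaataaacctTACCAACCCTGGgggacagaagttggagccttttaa
Heyl: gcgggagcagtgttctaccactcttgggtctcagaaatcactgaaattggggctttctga
In Hes1 the tetrapeptide was followed by 2 codons before the stop, and in Hey2 by 7. The 60 bases of Heyl held no such codons.

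Most UMIs of the set came from 1 receptor and 1 target in both libraries. Notch2 and Hes1 were the only members with at least 10 CPM in either library. Of the 10 members, 2 were higher in cultured than in primary CDSCs, the receptors Notch2 and Notch3, and 8 were lower, although the intervals of the ratio for Notch1, Jag1 and Hey2 included no difference. At least 2-fold higher was 1 member, and at least 2-fold lower were 4. Over 17307 genes with a ratio and no minimum level, 56.8% were higher by any amount, 26.5% passed the same fold upward and 21.0% downward. The median log2 ratio, cultured over primary, was -0.66 over the 10 members and 0.21 over these 17307 genes. Over the 9115 genes with at least 10 CPM it was 0.37, and over Notch2 and Hes1, the members at that level, 0.05.

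**Figure D1:**
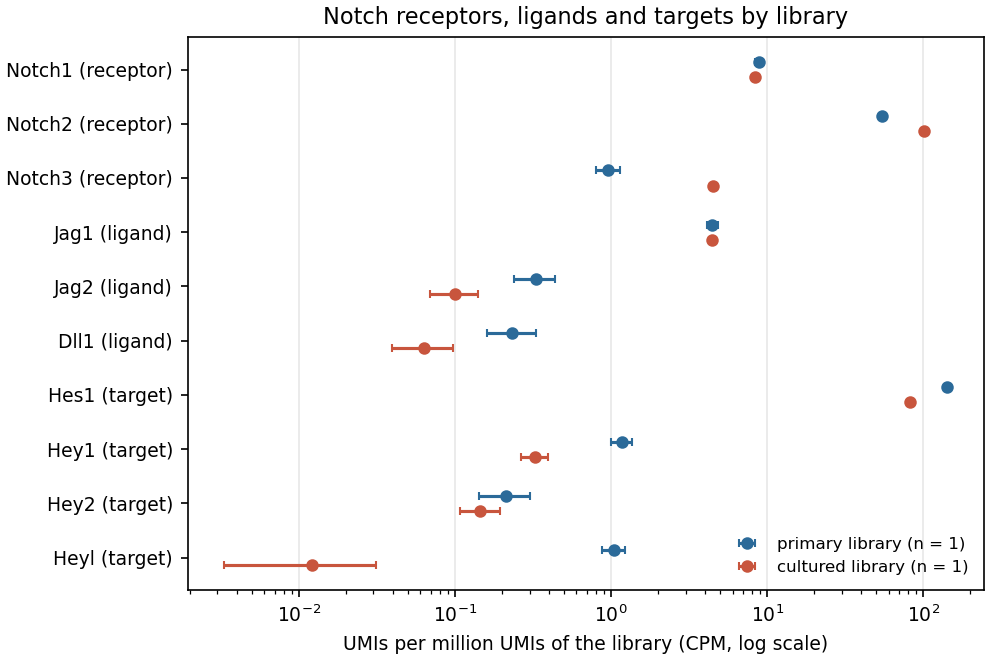
CPM of each of the 10 genes on a log axis, with 1 point per library (blue, primary; red, cultured) and bars for the exact 95% Poisson interval of the summed count. Notch3 and Notch2 lie further right in the cultured library, Notch1 and Jag1 nearly coincide, and Heyl lies at 1.04 CPM in primary CDSCs and 0.0121 CPM in cultured CDSCs.

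Of the receptors, Notch2 and Notch3 were higher in the cultured library, and the interval of Notch1 included no difference. Notch2 (ENSMUSG00000027878, GRCm38 chromosome 3, 98013527 to 98150361) had 7464 UMIs, 54.4 CPM (53.2 to 55.7), in primary CDSCs and 33146 UMIs, 100.4 CPM (99.3 to 101), in cultured CDSCs. Its log2 ratio was 0.88 (0.85 to 0.92), or 1.84-fold higher in cultured CDSCs. Notch3 (ENSMUSG00000038146, chromosome 17, 32120820 to 32166852) was at 0.962 CPM (0.805 to 1.14) from 132 UMIs in the primary and at 4.49 CPM (4.27 to 4.73) from 1483 UMIs in the cultured library, 4.67-fold higher with a log2 ratio of 2.22 (1.96 to 2.49). Notch1 (ENSMUSG00000026923, chromosome 2, 26457903 to 26516663), the best-studied receptor of the family, was at 8.82 CPM (8.33 to 9.33) and 8.39 CPM (8.08 to 8.71), a log2 ratio of -0.07 (-0.17 to 0.03). The levels of Notch1 in the 2 libraries thus overlapped within counting error.

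The ligands were scarce. Jag1 (ENSMUSG00000027276, chromosome 2, 137081456 to 137116644), the ligand with the most UMIs, was at 4.46 CPM in each library (4.12 to 4.83 and 4.24 to 4.70), from 612 and 1473 UMIs, a log2 ratio of 0.00 (-0.14 to 0.14). Jag2 (ENSMUSG00000002799, chromosome 12, 112907819 to 112929776) had 45 UMIs, 0.328 CPM, in primary CDSCs and 33 UMIs, 0.1000 CPM, in cultured CDSCs. Dll1 (ENSMUSG00000014773, chromosome 17, 15367354 to 15376872), a ligand of the Delta class, had 32 UMIs, 0.233 CPM, and 21 UMIs, 0.0636 CPM. The log2 ratios were -1.71 (-2.41 to -1.03) for Jag2 and -1.87 (-2.74 to -1.04) for Dll1, both resting on under 50 UMIs a library. That of Dll1 ranged from -2.09 to -1.21 over 11 alternative settings and was -1.21 when presumed doublets were left out.

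All 4 targets had a lower CPM in the cultured library, by very different amounts. Hes1 (ENSMUSG00000022528, chromosome 16, 30064384 to 30067796), a repressor that many signals besides Notch induce, had 19303 UMIs, 141 CPM (139 to 143), in primary CDSCs and 27019 UMIs, 81.8 CPM (80.9 to 82.8), in cultured CDSCs. This was 1.72-fold lower, a log2 ratio of -0.78 (-0.81 to -0.76). Hey1 (ENSMUSG00000040289, chromosome 3, 8663359 to 8667256) was at 1.17 CPM from 160 UMIs and at 0.324 CPM from 107 UMIs, a log2 ratio of -1.85 (-2.21 to -1.49). Hey2 (ENSMUSG00000019789, chromosome 10, 30832359 to 30842801) had 29 and 48 UMIs, 0.211 and 0.145 CPM, and its interval of -1.23 to 0.18 included no difference. Its log2 ratio of -0.54 became -1.21, past 2-fold, when each cell weighed the same. Heyl (ENSMUSG00000032744, chromosome 4, 123233556 to 123249875), a target known from vascular smooth muscle, had 142 UMIs, 1.04 CPM, in primary CDSCs and 4 UMIs, 0.0121 CPM, in cultured CDSCs, a log2 ratio of -6.42 (-8.31 to -5.03). Heyl was thus 85.5-fold lower, a ratio that rests on 4 cultured UMIs.

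Another scaling moved all genes together. The median log2 ratio of the genes with at least 10 CPM was 0.37 in CPM, 0.16 with TMM factors and 0.13 with DESeq2 size factors. Relative to the median of 0.37, Notch2 stood 0.51 and Notch3 1.85 higher, while Notch1 stood at -0.44, Jag1 at -0.37 and Hes1 at -1.15. Notch3, Notch1 and Jag1 were themselves under 10 CPM in both libraries, and the median without a minimum level was 0.21. Notch2 kept a positive ratio and Hes1 a negative one under all 11 alternatives, with ranges of 0.66 to 0.91 and -1.0 to -0.78. Notch1 ranged from -0.29 to 0.07 and Jag1 from -0.22 to 0.10, so neither had a fixed direction.

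The other genes of the pathway were read from a list of 46. Of these, 29 were higher and 17 lower in cultured CDSCs, with 11 at least 2-fold higher, 11 at least 2-fold lower and a median log2 ratio of 0.21, the same as over the 17307 genes. With TMM factors 23 were higher. Among the 28 with at least 10 CPM, 6 passed 2-fold upward and 3 downward. The background over the 9115 genes at that level was 27.2% and 12.5%, so these counts were near it. The shares of those 9115 genes at least 4-fold apart were 10.6% higher and 5.73% lower, and of the 28 pathway genes 2 and 1 were.

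**Figure D2:**
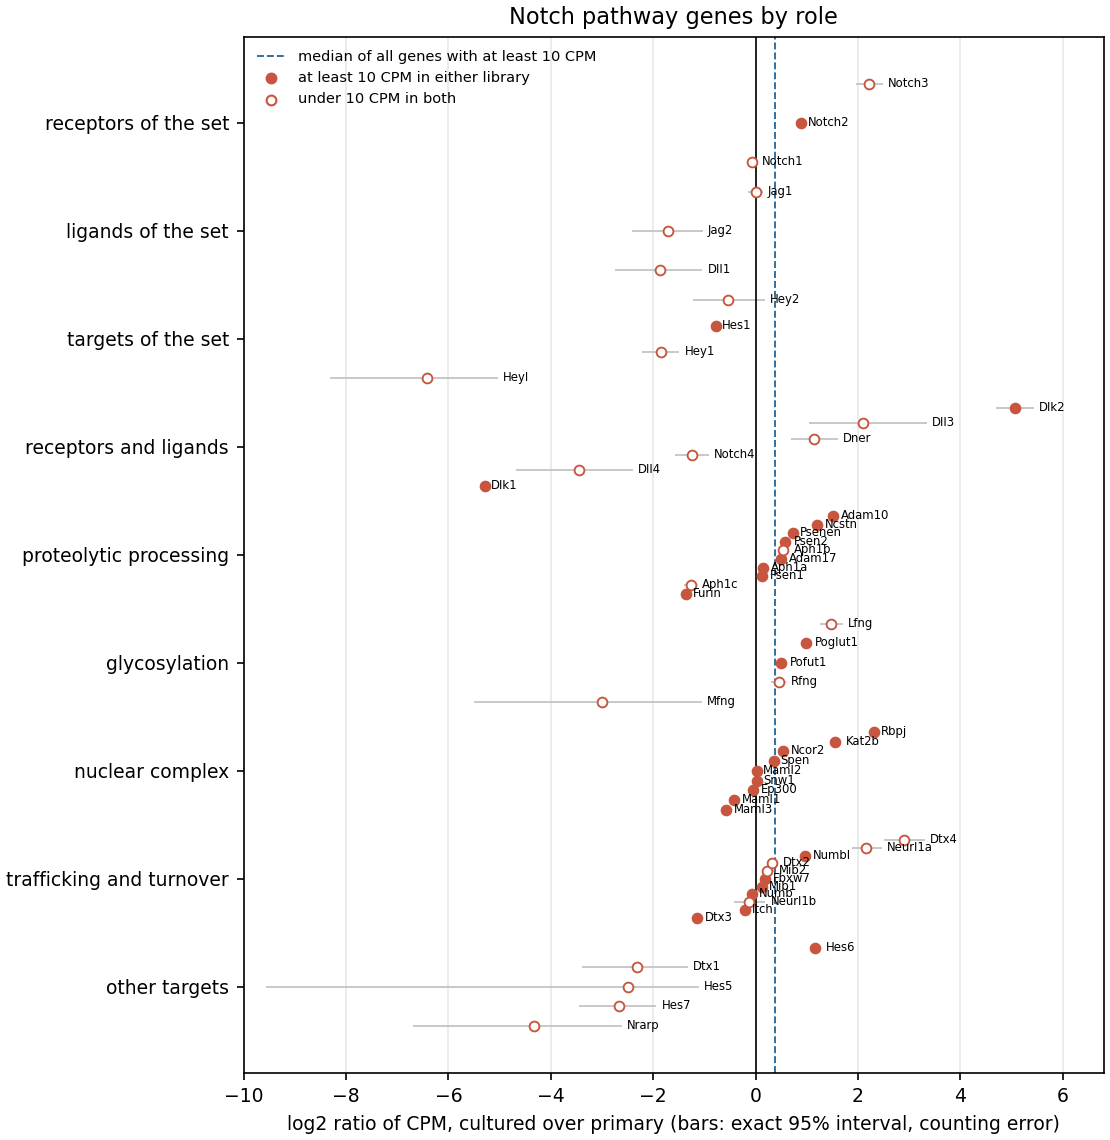
log2 ratio of CPM, cultured over primary, for the 10 genes of the set (upper 3 rows) and 46 other pathway genes grouped by role, with exact 95% intervals as gray bars, filled points for at least 10 CPM in either library and a dashed line at the median of all such genes (0.37). Targets lie mostly left of 0 and the gamma-secretase and nuclear complex genes mostly near or right of it.

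Among the pathway genes with at least 10 CPM, the non-canonical ligands were furthest apart and in opposite directions. Dlk1, a Delta-like protein that lacks the usual receptor-binding domain and is known from preadipocytes, had 301667 UMIs, 2200 CPM (2192 to 2207), in primary CDSCs and 18582 UMIs, 56.3 CPM (55.5 to 57.1), in cultured CDSCs, 39.1-fold lower. Its paralog Dlk2 was at 0.445 CPM (0.340 to 0.571) and 14.8 CPM (14.4 to 15.2), 33.3-fold higher. At 5000 UMIs per cell Dlk1 was detected in 98.8% of primary and 19.0% of cultured cells, and Dlk2 in 0.210% and 6.78%. Among the unnamed and the pericyte-like primary cells described below, Dlk1 was read in 80.0% and 97.0% and the cartilage gene Acan in 57.5% and 97.0%. The part of free RNA in these shares was not tested.

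The nuclear partner of all Notch receptors was higher in the cultured library. Rbpj had 6229 UMIs, 45.4 CPM (44.3 to 46.6), in primary CDSCs and 74290 UMIs, 225 CPM (223 to 227), in cultured CDSCs, 4.95-fold higher with a log2 ratio of 2.31 (2.27 to 2.35). At equal depth Rbpj was read in 19.1% of primary cells (18.4% to 19.9%) and in 61.1% of cultured cells (59.7% to 62.5%). The acetyltransferase gene Kat2b, a co-activator of the complex, was at 7.74 and 22.9 CPM. The Mastermind co-activators Maml1, Maml2 and Maml3 had log2 ratios of -0.42, 0.03 and -0.57, and the 9 genes of the nuclear complex had a median of 0.03. The Maml genes are outside the naming rule and were taken up after their values were seen.

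Of the processing genes, Adam10, the protease of the first cleavage after ligand binding, was at 27.7 and 79.4 CPM, a log2 ratio of 1.52. Ncstn, the gamma-secretase subunit nicastrin, was at 20.9 and 47.8 CPM, a log2 ratio of 1.19. Furin, which cuts the receptor precursor before it reaches the membrane, was at 51.4 CPM in primary CDSCs and lower in culture, with a log2 ratio of -1.36. Over all 10 processing genes 8 were higher and the median was 0.51. Of the 9115 genes with at least 10 CPM, which 8 of the 10 reached, 64.5% were higher, with a median of 0.37 against 0.53 for these 8. Dtx3, a Deltex-family ubiquitin ligase gene, was at 52.9 and 23.9 CPM.

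The other targets resembled the targets of the set in direction, with 1 exception. Hes6, which opposes Hes1 and does not depend on Notch in many cells, was at 6.29 and 14.1 CPM, a log2 ratio of 1.16. The remaining 4, named after their values were seen, were lower and rare. Hes5 had 7 and 1 UMIs, Hes7 58 and 22, Nrarp 25 and 3, and Dtx1 27 and 13 in the primary and cultured library. Counts this low leave their ratios imprecise.

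Detection per cell was compared after each cell had been thinned to 5000 UMIs, over 10959 primary and 4543 cultured cells, since cultured cells held more UMIs each. The shares of cells with a UMI were higher in the cultured library for 4 of the 10 members. Notch2 was read in 21.8% of primary cells (21.1% to 22.6%) and in 40.2% of cultured cells (38.8% to 41.7%), and Notch3 in 0.310% (0.215% to 0.433%) and 2.11% (1.71% to 2.57%). For Notch1 (3.81% and 4.12%) and Jag1 (2.10% and 2.38%) the intervals overlapped. Hes1 was read in 36.3% of primary cells (35.4% to 37.2%) and in 29.9% of cultured cells (28.6% to 31.2%). Hey1 was detected in 0.602% and 0.176%. Heyl was found in 0.465% of primary cells but in 0 of 4543 cultured cells, which allows a share of up to 0.0812%.

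Without thinning, 9 of the 10 members had the higher share in cultured CDSCs. Hes1 was at 51.6% of primary and 72.3% of cultured cells unthinned, Notch2 at 39.4% and 82.0%, and Notch1 at 8.83% and 32.1%. Only Heyl kept the lower share, at 1.10% and 0.0749%. The depth per cell, a median of 10026 against 56864 UMIs, moved with these unthinned shares.

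**Figure D3:**
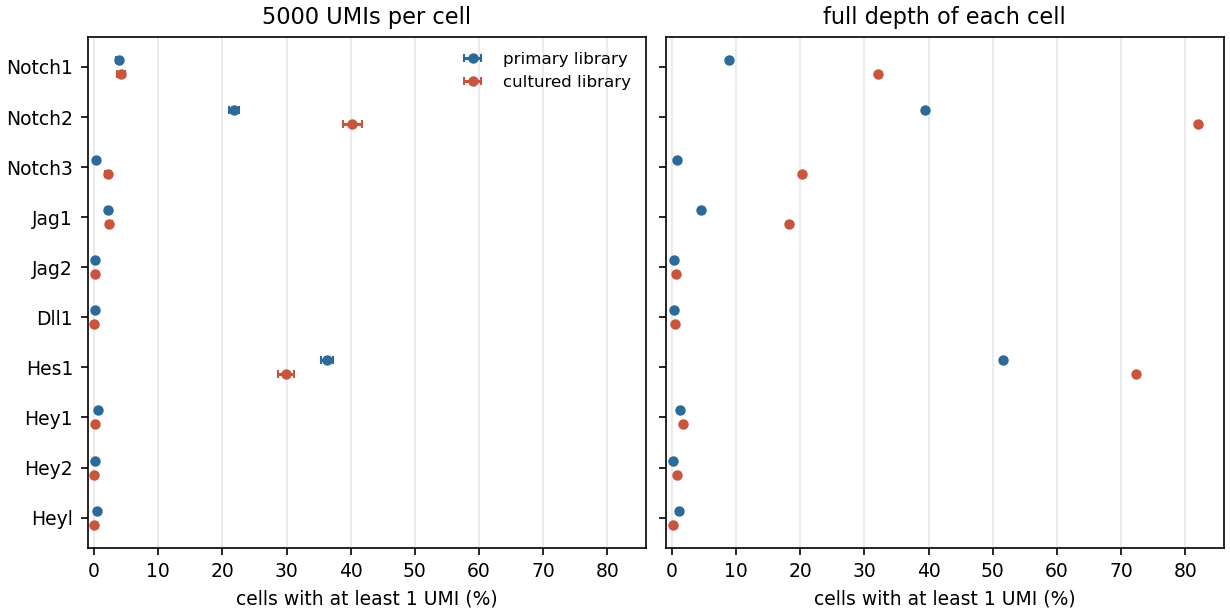
Percent of cells with at least 1 UMI of each gene, at 5000 UMIs per cell (left, bars are exact 95% binomial intervals) and at full depth (right), in the primary (blue) and cultured (red) library. Hes1 lies at 36.3% and 29.9% on the left and at 51.6% and 72.3% on the right, so its order depends on the depth.

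Hes1 was spread unevenly over primary cells. At 5000 UMIs per cell its mean was 0.732 UMIs per primary cell with a variance 2.79 times the mean, and 8.39% of cells held at least 3 UMIs, up to 21. In cultured cells the mean was 0.408, the variance 1.31 times the mean, and 2.11% of cells held at least 3 UMIs, up to 7. A Poisson count of the same mean would place a UMI in 51.9% of primary and 33.5% of cultured cells, against 36.3% and 29.9% observed. Within the 9 chondrocyte-like clusters described below, the variance of Hes1 was 1.22 to 3.40 times the mean, so the clusters did not remove the spread. For Notch2 the variance was 1.34 times the mean in primary and 1.15 times in cultured cells.

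Receptor and target were read in the same cells about as often as their single shares would give. Notch2 and Hes1 were both read in 8.06% (7.55% to 8.58%) of primary cells, where the product of the single shares was 7.93%, and in 12.2% (11.3% to 13.2%) of cultured cells, where it was 12%. In primary cells Hes1 was read in 39.8% (35.1% to 44.7%) of cells with a Notch1 UMI and 36.2% (35.3% to 37.1%) of the others, and in cultured cells in 30.5% and 29.9%. A receptor of the set together with a ligand of the set was read in 0.566% of primary and 1.30% of cultured cells, against products of 0.575% and 1.09% and inside the intervals. In cultured cells Hes1 was read in 28.3% (26.7% to 30.1%) of cells with Rbpj and 32.3% (30.2% to 34.6%) of those without. None of the 10 members was read in 46.3% of primary and 38.7% of cultured cells at this depth, so a missing UMI does not show that a gene was off.

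Clusters were made within each library without the 10 members and the 46 pathway genes among the variable genes. The primary library had 18 clusters, of which clusters 1 to 9, with 11458 cells, were chondrocyte-like. Clusters 10, 11, 12 and 16 were mesenchymal fibroblast-like, cluster 13 was smooth muscle and pericyte-like, and the rest stayed unnamed. Cluster 13, with 36 cells, had Rgs5 and Abcc9 but also Clec3b and Cilp among its leading genes. It had 5 smooth muscle and pericyte, 3 mesenchymal fibroblast and 2 tenocyte markers, so its name covers a mixed profile. Cluster 15, with 26 cells, had 10 endothelial, 4 mast cell and 3 erythroid markers and was not named. The 10 cultured clusters stayed unnamed and were led by genes such as Gpc3 and Aspn (cluster 1), division genes (cluster 5), Mmp13 and Comp (cluster 6), Barx1 and Sfrp2 (cluster 7) and Thy1 (cluster 8). Cultured cluster 3, with 854 cells, had a median of 1274 UMIs per cell. The cluster values below are descriptions without a test.

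Notch3 was concentrated in few primary cells. The pericyte-like cluster 13 held 54 of its 132 UMIs at 102 CPM (76.6 to 133), and unnamed cluster 14, led by Chodl and Cilp, was at 28.3 CPM (7.71 to 72.5) from 4 UMIs. Chondrocyte-like clusters 1 to 8 were at 0.165 to 0.874 CPM and cluster 9 at 2.79 CPM. At equal depth Notch3 was read in 18.2% (6.98% to 35.5%) of pericyte-like and in 0.223% (0.143% to 0.331%) of chondrocyte-like cells, with medians of 13202 UMIs in cluster 13 and 7304 to 17097 UMIs in clusters 1 to 9. The part of free RNA in the chondrocyte-like share was not tested. In the cultured library Notch3 was spread over the clusters, at 3.28 to 7.95 CPM over the 7 clusters with at least 100 cells and a median of at least 2000 UMIs, highest in cluster 6.

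The 288 primary cells in other than chondrocyte-like clusters, with 1.90% of the UMIs, gave 45.5% (36.8% to 54.3%) of the Notch3 UMIs. They gave 18.8% of the Dll1, 13.3% of the Jag2, 5.39% of the Jag1, 4.55% of the Notch1, 3.36% of the Notch2 and 1.25% of the Hes1 UMIs. Against chondrocyte-like cells alone, at 0.535 CPM, cultured CDSCs had a Notch3 log2 ratio of 3.07. The smooth muscle and pericyte markers summed to 360.1 CPM in primary CDSCs and 2670 CPM in cultured CDSCs, with 5 of the 10 markers at 10 CPM or more in each and none at 0. Their part in the Notch3 difference was not tested.

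Notch1, Jag2, Dll1, Hes1, Hey1 and Hey2 stood highest of the primary clusters in cluster 15, the small cluster with endothelial, mast cell and erythroid markers. Notch1 was at 126 CPM (88.9 to 174) there and at 3.58 to 14.6 CPM in the chondrocyte-like clusters, highest in the dividing cluster 8. Jag2 and Dll1 were each at 20.5 CPM (7.51 to 44.6) from 6 UMIs, and Hey1 at 17.1 CPM from 5. Hes1 was at 212 CPM (162 to 271), an interval that includes the 192 CPM of chondrocyte-like cluster 1, and Hey2 at 3.41 CPM from 1 UMI. Notch2, in contrast, was lowest in cluster 15, at 23.9 CPM (9.60 to 49.2). The 10 endothelial markers summed to 28.3 CPM in primary CDSCs and 29.3 CPM in cultured CDSCs, where 1 was at 0, and the 5 mast cell markers to 8.95 and 0.173 CPM.

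Notch2 varied less among clusters. It was at 35.5 to 87.2 CPM in the chondrocyte-like clusters, lowest in cluster 3 and highest in cluster 2, whose leading genes include Clu, Prg4 and Cilp2. In the mesenchymal fibroblast-like clusters it was at 76.2 to 175 CPM, and 42.9% (33.5% to 52.6%) of these cells read it at equal depth against 21.5% (20.7% to 22.3%) of chondrocyte-like cells. The cultured clusters with at least 100 cells and a median of at least 2000 UMIs were at 68.5 CPM (cluster 2) to 129.6 CPM (cluster 6), so they overlapped the ranges of both the chondrocyte-like and the fibroblast-like primary clusters.

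**Figure D4:**
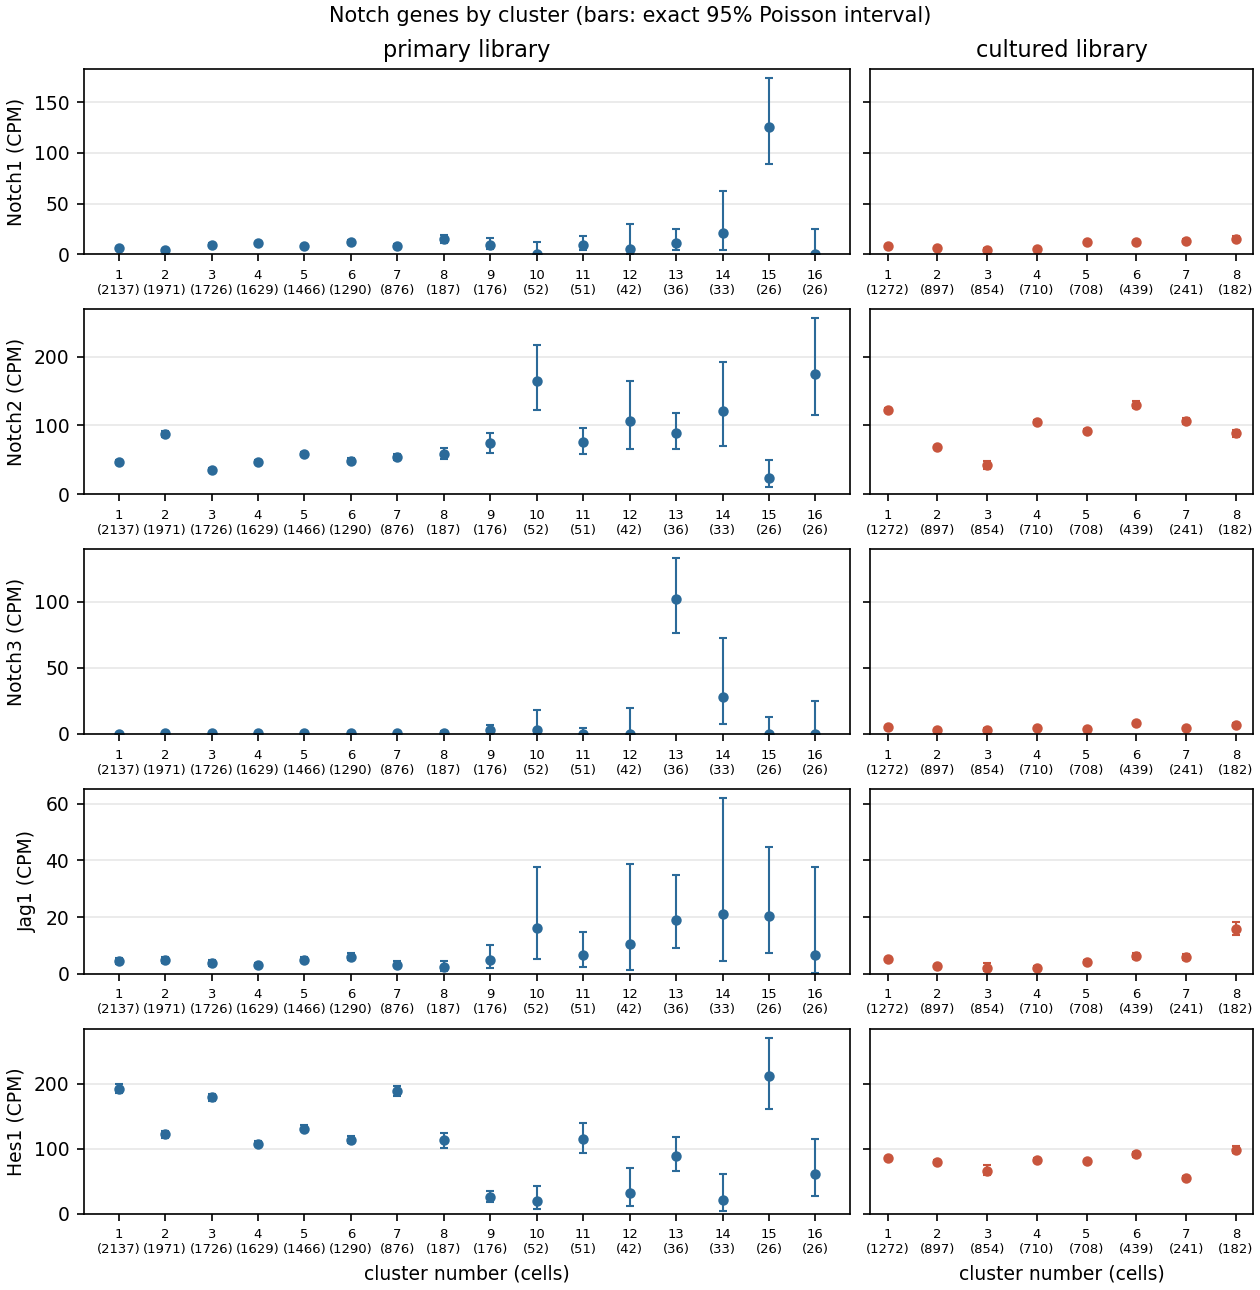
CPM of Notch1, Notch2, Notch3, Jag1 and Hes1 in clusters of at least 20 cells of the primary (left, blue) and cultured (right, red) library, numbered by size with cells in parentheses, with exact 95% Poisson intervals. Cultured cluster 9 (26 cells, median 1240 UMIs) is not drawn. Notch3 stands at 102 CPM in primary cluster 13, Notch1 at 126 CPM in cluster 15, and Jag1 at 15.9 CPM in cultured cluster 8.

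Among the cultured clusters with at least 100 cells, Jag1 was highest in cluster 8. This cluster, with 182 cells and Thy1 among its leading genes, was at 15.9 CPM (13.7 to 18.2), and the other 6 clusters with at least 100 cells and a median of at least 2000 UMIs were at 2.25 to 6.32 CPM. Of these 7 clusters it also had the highest CPM of Notch1, at 15.1 (13.0 to 17.4), and of Hes1, at 98.5 (93.1 to 104). These intervals overlapped those of cluster 7 for Notch1 (11.7 to 14.8) and of cluster 6 for Hes1 (87.6 to 95.7). At equal depth cluster 8 was highest in neither. Notch1 was read in 8.24% of its cells against 8.79% in cluster 7, and Hes1 in 29.1% against 31.5% in cluster 4. The 9 cells of cultured cluster 10 had more Jag1, at 32.1 CPM (17.1 to 54.8). Chondrocyte-like primary clusters were at 2.33 to 6.08 CPM for Jag1, and the small clusters 13, 14 and 15 at 18.9 CPM (9.06 to 34.7), 21.2 CPM (4.38 to 62.0) and 20.5 CPM (7.51 to 44.6).

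Hes1 differed 7.44-fold among the chondrocyte-like clusters, from 25.8 CPM (18.2 to 35.5) in cluster 9 to 192 CPM in cluster 1. Clusters 3 and 7 were at 179 and 189 CPM, and the other 5 at 108 to 131 CPM. At equal depth Hes1 was read in 7.91% (4.02% to 13.7%) of cells of cluster 9 and in 45.2% (41.9% to 48.7%) of cluster 7. Cluster 9, led by 1700001K19Rik, Jazf1 and Zbtb16, also had the lowest sum of 11 immediate early and stress genes of these clusters, at 6217 CPM against 15115 to 22978 CPM. Its median mitochondrial share was the highest of these clusters, at 3.21% against 1.56% to 2.00%. Cluster 1 had the highest sum as well as the highest Hes1. Cluster 7 had a sum of 16723 CPM, while cluster 6, with Hes1 at 114 CPM, had 21043 CPM. In the 7 cultured clusters with at least 100 cells and a median of at least 2000 UMIs, Hes1 was at 55.5 CPM (cluster 7) to 98.5 CPM (cluster 8), below the level of each primary chondrocyte-like cluster except cluster 9.

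The immediate early and stress genes, which tissue digestion is known to induce, were, like Hes1, lower in the cultured library. Their sum was 18806 CPM in primary CDSCs and 2056 CPM in cultured CDSCs, with 11 of 11 lower. When primary cells were ordered by their UMIs of this list at equal depth, Hes1 was read in 28.7% (27.0% to 30.5%) of the 2632 cells with the fewest and 42.7% (40.8% to 44.5%) of the 2779 cells with the most, while Notch2 was read in 22.8% and 21.0% of them. In cultured cells the Hes1 shares were 24.2% (21.4% to 27.1%) of 886 cells with the fewest and 32.5% (29.9% to 35.1%) of 1296 cells with the most, and those of Notch2 were 34.5% (31.4% to 37.8%) and 39.9% (37.2% to 42.6%). The part of these genes in the Hes1 difference was not tested.

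The rare targets were thinly spread over the clusters. Heyl was at 2.23 CPM (1.44 to 3.29) in chondrocyte-like cluster 7, led by Slc35f1, Runx3 and Wnt5b, at 1.69 CPM in cluster 4, and at 11.3 CPM (4.16 to 24.7) from 6 UMIs in the pericyte-like cluster. Chondrocyte-like cells alone were at 0.989 CPM, so its log2 ratio of -6.35 against them stayed near the whole-library value of -6.42. Hey1 was at 0.559 to 1.76 CPM in the chondrocyte-like clusters and, in culture, at 1.17 CPM (0.757 to 1.73) in cluster 6 against 0.183 to 0.863 CPM in the other clusters with at least 100 cells and a median of at least 2000 UMIs.

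Genes with the most similar pattern over clusters were found by Pearson correlation of log2(CPM + 1), as a description over clusters that share a library. The 3 highest of all genes with at least 10 CPM in the library were taken, so an r near 1 over few clusters was not read as co-expression. For Hes1 over the 16 primary clusters with at least 20 cells they were Smad7 (r = 0.948), Id1 (0.935) and Purb (0.927). For Notch2 they were Arsb (0.974), Daam2 (0.956) and Naaladl2 (0.947). For Notch3 they were Dapk1 (0.882), Arhgap24 (0.878) and Tdrd3 (0.823), and for Notch1 Tpst2 (0.928), Pxn (0.927) and Sh3glb1 (0.880). Over 9 cultured clusters, Notch2 was most like Ranbp10 (0.999), Glyr1 and Hsf2 (0.998 each), and Hes1 most like Ociad1 (0.997), Ndrg3 and Rwdd4a (0.996 each). With the shallow clusters left out, a choice made after their depth was seen, the genes were Trak1, Lrif1 and Glyr1 for Notch2 and Prrx2, Cxcl14 and Serpina3g for Hes1. Of these 6, only Glyr1 was named in both.

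Promoter sequence was read for the members in the RefSeq promoter table of GRCm38.p6, which held 8 promoters of 7 members. It held none for the targets Hes1, Hey1 and Heyl, so Hey2 was the only target searched. The letters GTGGGAA, a form of the site that Rbpj binds, were searched on both strands over 300 bases around each start and occur in 6.39% of all 32817 promoters. Of the 8 promoters only that of Hey2 held them, with 1 match on the minus and 1 on the plus strand relative to the gene, whose leftmost bases lie 207 and 4 bases before the start site. Hey2 had 29 and 48 UMIs, so the libraries carry little on its expression.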

How the data were processed

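Single-cell RNA sequencing of 1 primary and 1 cultured CDSC library was used, grouped by the treatment labels. The methods of the study name both the MobiDrop platform and a 10x Genomics 3′ v3.1 kit. Raw UMI counts for each gene and barcode had been deposited, made by the authors with Cell Ranger 7.0.0 on mm10/GRCm38 (the submitters' processing notes also name GRCm39) and not normalized. The annotation release and the quality thresholds of the study were not given in the sources used here, so the cell filter was set independently.

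Kept cells were summed by library and given as CPM. The log2 ratio sets cultured over primary CPM, where a count below 3 was set to 3, and none was given where both were at or under 3. A count of 3 was 0.0219 CPM for primary and 0.00909 CPM for cultured CDSCs. Intervals are exact Poisson, Clopper-Pearson or conditional at 95%. Each group was 1 library, so no test was run. Ratios, intervals and thinning were tested on simulated data. Scrublet (scanpy 1.11.5) called 0 primary and 1 cultured doublets by its automatic threshold and had not worked, so doublets were kept, and an alternative left out the 1118 primary and 461 cultured cells of highest score. Thinning to 5000 UMIs left out 787 primary and 795 cultured cells.

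Each library was clustered with leidenalg 0.10.2 at resolution 0.5 (20 neighbours, 10 principal components, 2000 variable genes), and mixed clusters of 100 cells or more were divided a second time (10 neighbours, resolution 1.0). A cluster took the name of the type with most markers of 50 CPM or more and 4-fold above the other cells, if at least 3 and if its 10 leading genes by fold held a marker of that type and fewer of any other. Otherwise it was chondrocyte-like with at least 3 chondrocyte markers at 1000 CPM and under 3 markers of any other type, unless far shallower than its library, and unnamed in the remaining cases. Genes named were the 10 members, other pathway genes with at least 10 CPM that were 2-fold apart (at most 12) with Rbpj, and the 3 genes most like each member that reached 50 CPM in a cluster. The members and lists were chosen with earlier results of these data known. The coding end of 1 target is not reported here. Gene coordinates came from GENCODE M21 (GRCm38) by identifier. Scaling alternatives used edgeR 4.0.16 and DESeq2 1.42.0 in R 4.3.3.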

Additional observations from a re-analysis of the deposited data

How the results depend on the processing

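No log2 ratio whose interval excluded no difference changed direction under an alternative. Detection shares did change order. The Hes1 share was lower in cultured cells at equal depth, at 36.3% and 29.9%, and higher without thinning, at 51.6% and 72.3%. The number of members with a higher CPM in the cultured library was 2 and became 4 when each cell weighed the same, with Notch1 at a log2 ratio of 0.07 and Jag1 also on the positive side. It was 2 or 3 under the other 10 alternatives. The number of members at least 2-fold apart was 5 and became 0 when only the members with at least 10 CPM were counted, since those are Notch2 and Hes1. It was 5 or 6 otherwise. The number detected in a larger share of cultured cells was 4 and became 9 without thinning. The count of other pathway genes with a higher CPM ranged from 23 with TMM or DESeq2 factors to 30. Notch3 moved most, to a log2 ratio of 2.97 without the clusters that held endothelial, mast cell, erythroid, pericyte or haematopoietic markers. Endothelial, mast and erythroid cells were not separated, so whole clusters were left out. The Notch3 ratio was 3.07 without all cells outside the chondrocyte-like clusters, an alternative chosen after seeing the data. Dll1 moved from -1.87 to -1.21 without presumed doublets, and Hey2 from -0.54 to -1.21 with each cell weighing the same. With 30 principal components those cells gave 6.04% of the Notch1 UMIs instead of 4.55%. The genes at least 2-fold apart, 3625 in all, were 5652 at a minimum of 1 CPM and 8222 with none, and those 4-fold apart were 1488, 2575 and 3950. No paired analysis was possible because each group was 1 library and the result came from no test. Depth limits Jag2, Dll1, Hey2 and the cultured Heyl, which rest on under 50 UMIs.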

Other observations

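The 5460 cultured barcodes that failed the cell filter, most of them under 1000 UMIs, entered only the alternative that kept every deposited barcode. They held 6298068 UMIs, of which 1039 were Notch2, or 165 CPM (155 to 175), against 100.4 CPM in the kept cultured cells. Jag1 was at 9.53 CPM (7.27 to 12.3) there against 4.46 CPM. Hes1 was lower, at 65.6 CPM (59.4 to 72.2) against 81.8 CPM, and Notch1 was at 7.30 CPM (5.35 to 9.74), which includes the 8.39 CPM of the kept cells. Heyl and Dll1 had 0 UMIs, which allows up to 0.586 CPM for each.

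The 9 cells of cultured cluster 10, which had 8 haematopoietic markers, read Jag1 at 32.1 CPM (17.1 to 54.8) from 13 UMIs and Hes1 at 27.1 CPM (13.5 to 48.6) from 11. Notch3 had 0 UMIs in these cells, which allows up to 9.10 CPM, above the 4.49 CPM of all kept cultured cells.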
